A study of Mus musculus with 6 samples.

Results

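The aryl hydrocarbon receptor (AHR) genes measured here are the receptor gene Ahr and 6 genes known as its targets or feedback inhibitors, namely Cyp1a1, Cyp1a2, Cyp1b1, Nqo1, Tiparp and Ahrr. The 7 members are named by gene symbol among 19752 named genes, and they were chosen by their measured levels and their HRF minus PBS ratios on these arrays, so both are given as a description, with no test. Whole lung was profiled on 6 single-colour Agilent arrays, 1 for each of 6 groups. The mice were C57BL/6 and carried the labels FcRg-/- or FceRa-/- or were wild type (WT), and each genotype received histamine-releasing factor (HRF, labelled mHRF-His) or PBS through the nose. Fcer1g encodes FcRg, a signalling chain shared by Fc receptors, and Fcer1a encodes FceRIa, the IgE-binding chain of the mast cell receptor. Neither the age of the mice, the dose, the time of sampling nor pooling of animals is given in the sources used here. In the following, the knockout arrays are called by their labels, FcRg KO and FceRIa KO.

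AHR is a ligand-activated transcription factor that senses planar aromatic chemicals from smoke and pollution and also natural ligands made from tryptophan. Without ligand it is held in the cytoplasm by HSP90 and partner proteins. With ligand it enters the nucleus, pairs with ARNT and binds a short DNA element whose core reads GCGTG, called the xenobiotic response element (XRE). Cyp1a1, Cyp1a2 and Cyp1b1 encode cytochrome P450 enzymes that oxidise such chemicals, and Cyp1a1 is the usual marker of AHR activity in lung. Nqo1 encodes a quinone reductase that responds both to AHR and to the oxidative stress factor NRF2. Tiparp encodes a mono-ADP-ribosyltransferase and Ahrr a repressor that competes for ARNT, and both limit AHR signalling.

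The promoters are shown because Cyp1a1, Cyp1b1 and Nqo1 were highest on the same array, that of WT HRF, while Ahrr was not. Each run holds the 250 bases before the annotated start, in the direction of the gene, from RefSeq on GRCm38.p6, and GCGTG or its reverse complement CACGC is in capitals. The positions are Cyp1a1, chr9:57697363-57697612 (plus strand), Cyp1b1, chr17:79715062-79715311 (minus strand), Nqo1, chr8:107403206-107403455 (minus strand), and Ahrr, chr13:74292332-74292581 (minus strand).
Cyp1a1: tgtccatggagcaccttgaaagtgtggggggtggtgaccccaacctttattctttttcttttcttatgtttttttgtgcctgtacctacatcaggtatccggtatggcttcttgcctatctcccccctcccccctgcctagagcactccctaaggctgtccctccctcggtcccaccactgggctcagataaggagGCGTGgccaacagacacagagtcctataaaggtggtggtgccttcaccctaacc
Cyp1b1: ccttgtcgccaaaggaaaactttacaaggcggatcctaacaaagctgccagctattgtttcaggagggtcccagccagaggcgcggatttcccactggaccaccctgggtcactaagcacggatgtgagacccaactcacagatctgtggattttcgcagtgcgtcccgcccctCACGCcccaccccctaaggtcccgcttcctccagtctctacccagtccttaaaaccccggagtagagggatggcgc
Nqo1: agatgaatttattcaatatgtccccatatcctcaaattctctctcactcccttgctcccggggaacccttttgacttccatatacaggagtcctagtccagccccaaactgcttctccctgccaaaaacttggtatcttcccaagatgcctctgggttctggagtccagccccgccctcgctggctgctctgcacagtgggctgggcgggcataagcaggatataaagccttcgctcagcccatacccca
Ahrr: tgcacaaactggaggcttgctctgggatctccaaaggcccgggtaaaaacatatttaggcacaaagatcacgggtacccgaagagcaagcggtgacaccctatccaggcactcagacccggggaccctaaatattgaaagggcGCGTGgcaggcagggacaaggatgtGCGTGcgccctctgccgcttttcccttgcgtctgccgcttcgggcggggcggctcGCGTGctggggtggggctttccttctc
The windows of Cyp1a1 and Cyp1b1 hold 1 core each, that of Ahrr holds 3 and that of Nqo1 holds 0. Promoters of 6 of the 7 members were matched by symbol, and the core was present on either strand in 4 of them, with 1 in Tiparp and 0 in Cyp1a2. Of 32851 promoter windows of the same length, 28.2% hold at least 1 core and 2.77% hold at least 3. The core of Cyp1a1 lies 54 to 50 bases before the start and that of Cyp1b1 76 to 72 bases before it. The antioxidant response element core TGACNNNGC, bound by NRF2, was searched on both strands and is in 0 of the 6 windows, against 10.2% of all windows. A match describes letters only, and well-known AHR enhancers lie further upstream than these windows.

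All 6 arrays lay on 1 slide and were scanned in 1 run, and between 67.5% and 79.6% of their 59305 spots were well above background. Fcer1g stood between 4.14 and 4.32 on the FcRg KO arrays, against 3.93 and 4.61 in WT, and Fcer1a at -1.16 and -0.90 on the FceRIa KO arrays, against -4.19 and -4.48 in WT, as log2 levels. Neither label is thus borne out by a low level of its gene, and whether these probes lie in the deleted parts is not known here. B cell markers were far lower on both FcRg KO arrays: the summed level of a list of 5, relative to the 75th percentile, was 1.73 (HRF) and 1.76 (PBS) on the FcRg KO arrays, 28.7 and 22.4 on the FceRIa KO arrays and 25.2 and 21.6 in WT. With 1 array per group no ratio has a replicate check, and precision is limited by how few arrays there are. In whole lung, a change in the number of cells of a type and a change in RNA per cell cannot be told apart. All 8 alveolar type 2 markers (surfactant genes among them) and all 8 endothelial markers were well above background on every array.

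Values are log2 of the processed signal minus the array's 75th percentile, so that 0 is that percentile, and a ratio is a difference of 2 such levels. Of the 7 members, 6 were well above background on all 6 arrays. Cyp1a2, which is mainly a liver enzyme, stayed below that mark on all 6, so no ratio is given for it. Ahr, Ahrr and Tiparp have 2 probes each, and the brighter one is used.

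Levels of the receptor gene Ahr differed little. Its log2 level was 3.64 with HRF and 3.62 with PBS on the FcRg KO arrays, 3.43 and 3.41 on the FceRIa KO arrays, and 3.87 and 3.59 on the WT arrays. The WT HRF array was the highest and both FceRIa KO arrays were the lowest. The HRF to PBS ratio was 0.03 for FcRg KO, 0.02 for FceRIa KO and 0.28 for WT. A second, much dimmer Ahr probe gave 0.56, 0.21 and 0.02 for the same 3 pairs, so the 2 probes put the largest ratio in different genotypes.

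**Figure D1:**
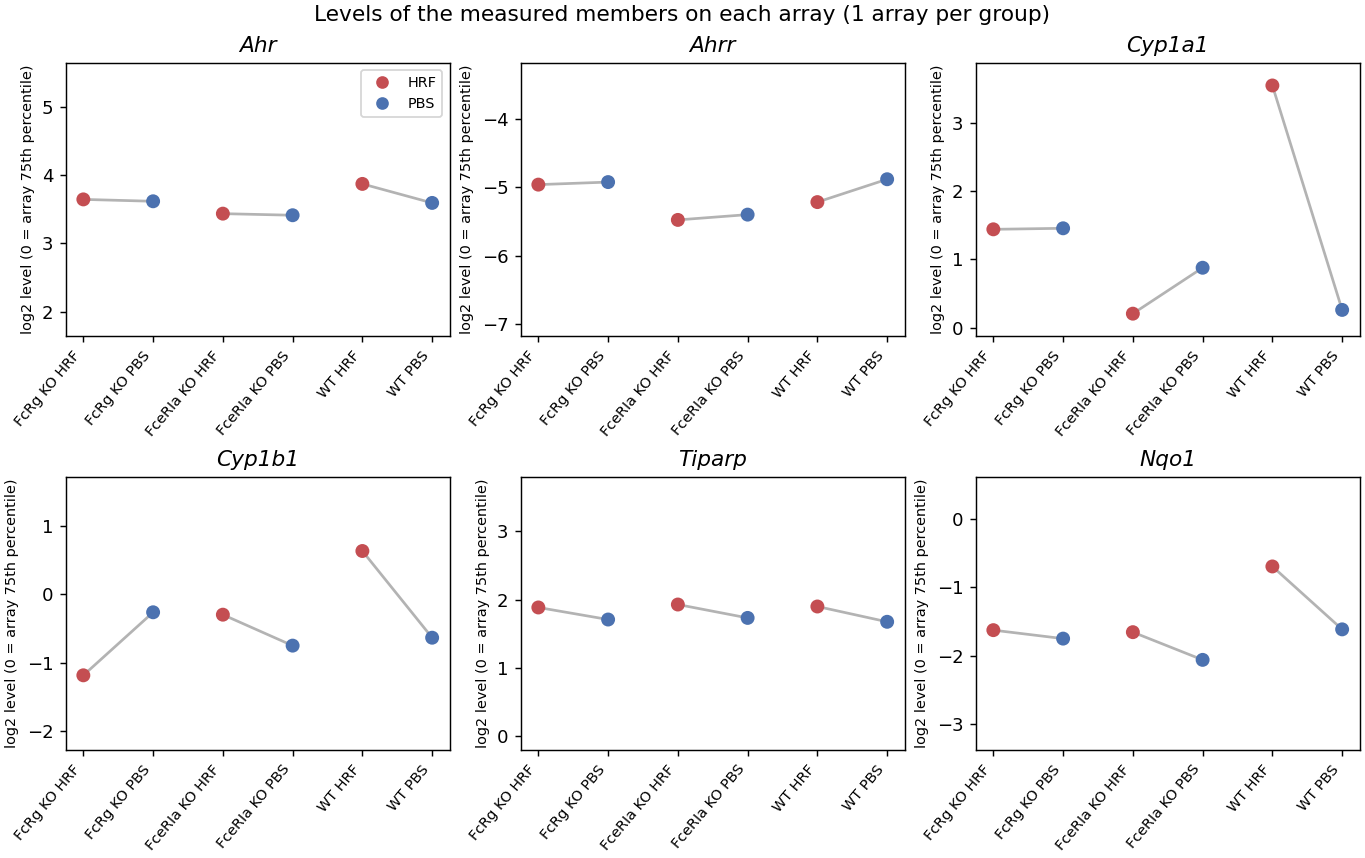
Log2 levels of the 6 measured members on each array, as the processed signal against the array's 75th percentile. Each point is 1 array, grey lines join the HRF and PBS arrays of a genotype label, and every panel spans 4 log2 units. Cyp1a1 stands at 3.55 on the WT HRF array and between 0.20 and 1.45 on the others.

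Cyp1a1 had by far the widest range of the members. Its log2 level was 1.44 with HRF and 1.45 with PBS on the FcRg KO arrays, 0.20 and 0.88 on the FceRIa KO arrays, and 3.55 and 0.26 on the WT arrays. The WT HRF array stood apart from the other 5, which lay between 0.20 and 1.45. In processed signal the WT values were 18260 with HRF and 1939 with PBS, a 9.77-fold difference (log2 3.29). That ratio ranked 26 among the 17445 genes compared in WT, counted from the highest. The FcRg KO pair gave -0.01. The FceRIa KO pair gave -0.67, the other direction to WT, and 1.93% of 16316 genes had a lower ratio in that pair. The response in WT thus exceeded that of the FcRg KO pair by 3.30 and that of the FceRIa KO pair by 3.96 on the log2 scale.

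Cyp1b1, which is expressed mainly in stromal and vascular cells, was the other member past 2-fold in WT. Its log2 level was -1.19 with HRF and -0.26 with PBS on the FcRg KO arrays, -0.30 and -0.75 on the FceRIa KO arrays, and 0.64 and -0.64 on the WT arrays. The highest array was WT HRF and the lowest was FcRg KO HRF. The ratio was -0.92 for FcRg KO, 0.45 for FceRIa KO and 1.27 (2.41-fold) for WT. In the FcRg KO pair, 1.90% of genes had a lower ratio, while in the WT pair 98.4% did.

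Nqo1 followed with a smaller range. Its log2 level was -1.63 with HRF and -1.75 with PBS on the FcRg KO arrays, -1.66 and -2.06 on the FceRIa KO arrays, and -0.69 and -1.62 on the WT arrays. Again WT HRF was the highest array, and the other 5 lay within 0.45 of each other. The ratio was 0.12 for FcRg KO, 0.41 for FceRIa KO and 0.92 (1.89-fold) for WT, just under 2-fold, while Cyp1b1 at 1.27 lay just above. Scaling each array on its median in place of its 75th percentile gives 1.14 for Nqo1 in WT, since that choice moves the median WT ratio of all genes by 0.22, to 0.17 against -0.05.

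The feedback genes did not show that pattern. Tiparp stood at 1.88 with HRF and 1.71 with PBS on the FcRg KO arrays, 1.93 and 1.73 on the FceRIa KO arrays, and 1.90 and 1.67 on the WT arrays. Its ratios were 0.18, 0.20 and 0.22, nearly the same in the 3 genotype labels, and a second probe gave 0.09, -0.03 and 0.07. Ahrr, the member with the most XRE cores, was dim: it stood at -4.96 and -4.92 on the FcRg KO arrays, -5.48 and -5.40 on the FceRIa KO arrays, and -5.22 and -4.88 on the WT arrays, HRF first. Its ratio was -0.04 for FcRg KO, -0.08 for FceRIa KO and -0.33 for WT, all below 0, but the mean over both probes gave 0.04 for FceRIa KO, and normexp background correction with quantile normalization gave 0.05 for WT. A second Ahrr probe was well above background on 0 arrays.

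**Figure D2:**
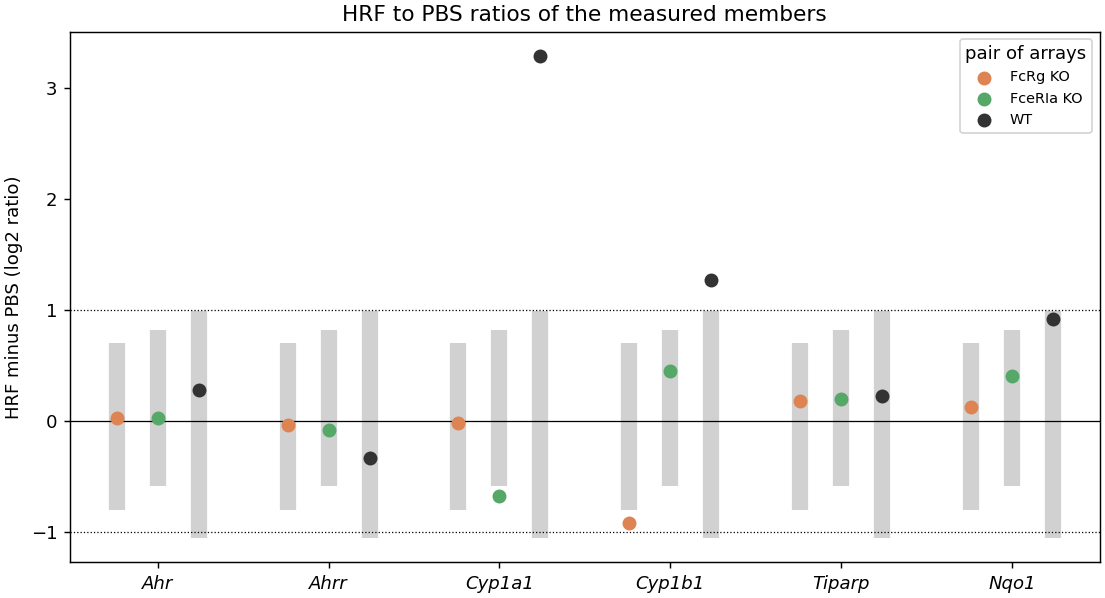
HRF minus PBS log2 ratios of the 6 measured members in each pair of arrays. Grey bars span the middle 95% of all genes compared in that pair, and dotted lines mark 2-fold. In WT, Cyp1a1 (3.29) and Cyp1b1 (1.27) lie above the bar, in FcRg KO Cyp1b1 (-0.92) lies below it, and in FceRIa KO Cyp1a1 (-0.67) does.

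Counted at 2-fold, 0 members were higher and 0 lower in the FcRg KO pair, 0 and 0 in the FceRIa KO pair, and 2 and 0 in the WT pair. Over all genes compared, the shares were 1.23% higher and 1.60% lower in the FcRg KO pair (205 and 265 of 16605), 1.97% and 0.809% in the FceRIa KO pair (321 and 132 of 16316), and 2.48% and 2.86% in the WT pair (433 and 499 of 17445). The rule that chose the members used these ratios, so nothing is read from the difference. The median ratio of the 6 measured members was 0.01 for FcRg KO, 0.11 for FceRIa KO and 0.60 for WT, beside 0.00, -0.01 and -0.05 for all genes.

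The 4 members that were highest on the WT HRF array differed in how far they stood above the other arrays. Cyp1a1 exceeded the highest of the other 5 by 2.09, Nqo1 by 0.92, Cyp1b1 by 0.90 and Ahr by 0.23 on the log2 scale. Of the 15685 genes well above background on every array, 0.816% (128 genes) exceeded the others by at least 2-fold, and Cyp1a1 ranked 24 among them by this gap. The levels on the 3 PBS arrays give the only view of the spread without HRF, across genotype labels. That spread was 1.20 for Cyp1a1, 0.49 for Cyp1b1 and 0.45 for Nqo1, while the 3 HRF arrays spread over 3.34, 1.82 and 0.96. For Tiparp the spreads were 0.04 with HRF and 0.06 with PBS, and for Ahrr 0.52 with either.

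Set against WT under the same challenge, the difference in Cyp1a1 changed direction between HRF and PBS in both labelled knockouts. With HRF its level was 1.44 on the FcRg KO array and 0.20 on the FceRIa KO array, against 3.55 in WT, which gives differences of -2.11 and -3.34. With PBS it was 1.45 and 0.88, against 0.26 in WT, which gives 1.20 and 0.62. The WT PBS array was the lowest of the 3 PBS arrays for Cyp1a1, and the large WT ratio rests on that low level as well as on the high WT HRF level. The difference of FceRIa KO from WT with HRF ranked 11 from the lowest among 16864 genes.

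Cyp1b1 and Nqo1 were also lower than in WT with HRF. Cyp1b1 differed from WT HRF by -1.82 on the FcRg KO array and -0.93 on the FceRIa KO array, and Nqo1 by -0.93 and -0.96. With PBS the differences from WT were 0.37 and -0.12 for Cyp1b1, and -0.14 and -0.45 for Nqo1. In the FcRg KO set, 2 members were at least 2-fold lower than WT with HRF (4.29% of all genes were) and 1 was at least 2-fold higher with PBS (0.788% of all genes). In the FceRIa KO set, 1 member was at least 2-fold lower with HRF (3.86% of all genes) and none was past 2-fold in either direction with PBS (7.44% of all genes). Median scaling shifts PBS differences from WT by 0.27 in FcRg KO and 0.23 in FceRIa KO over all genes. Under it the PBS difference of Nqo1 turns to 0.14 in FcRg KO and that of Cyp1b1 to 0.11 in FceRIa KO, while those of Cyp1a1 were 1.47 and 0.85. Comparisons with WT share the WT arrays, so they are not independent of each other or of the WT ratio.

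**Figure D3:**
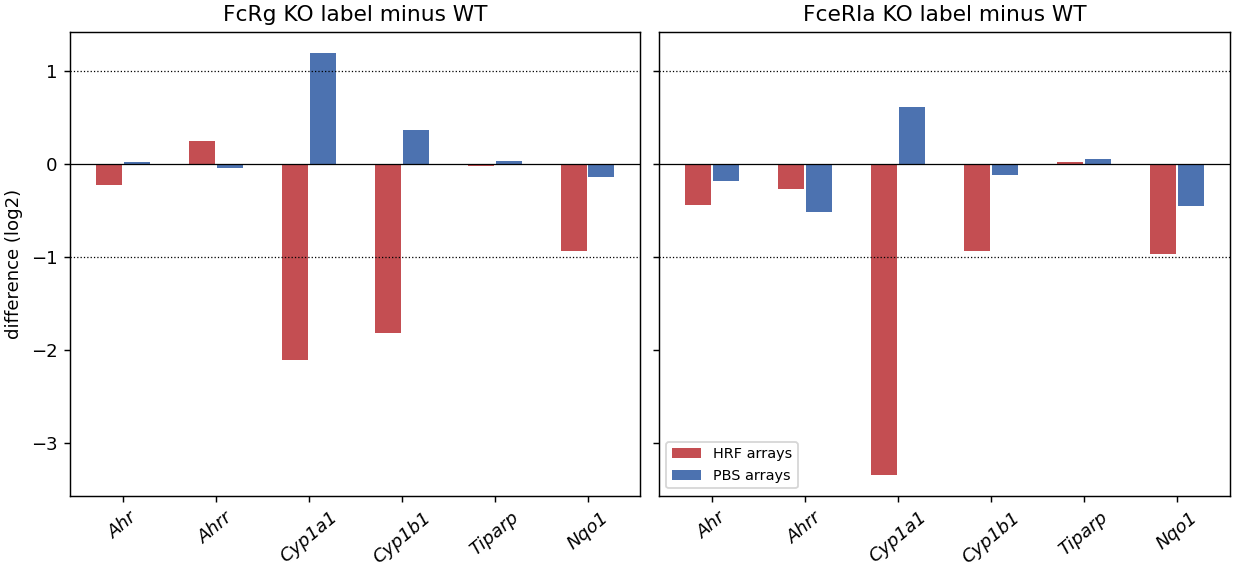
Log2 differences of the FcRg KO and FceRIa KO arrays from the WT array under the same challenge, for the 6 measured members. Red bars compare HRF arrays and blue bars PBS arrays, and dotted lines mark 2-fold. Cyp1a1 is below WT with HRF (-2.11 and -3.34) and above it with PBS (1.20 and 0.62).

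Genes around the pathway were read from 7 lists of 97 genes in all, chosen with earlier results of these data known. Averaged over the 3 genotype labels in limma, with genotype as an additive term, 0 of 17615 genes were higher with HRF (0.0%) and 0 lower (0.0%) at an adjusted p under 0.05, while 1549 had an unadjusted p under 0.05. So 0 genes of the lists passed in either direction. The residual of that fit is the difference in response between genotype labels, so it does not measure the spread between mice. By size, HRF and PBS differed at least 2-fold for 3 list genes upward and 3 downward in the FcRg KO pair (94 compared), 4 and 1 in the FceRIa KO pair (93) and 8 and 1 in the WT pair (94). Over all genes compared, the shares upward and downward were 1.23% and 1.60% in FcRg KO and 1.97% and 0.809% in FceRIa KO. In WT they were 2.48% and 2.86%. The same shares stand beside the list counts below, and nothing is read from the differences.

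Transcripts of the proteins that hold and pair with AHR differed less than 2-fold with HRF. Of the 12 genes of the AHR complex and its coactivators, 0 reached 2-fold in any pair. The median ratio was -0.01 for FcRg KO, 0.01 for FceRIa KO and -0.01 for WT. The signs of the FceRIa KO and WT medians depend on the processing. Hsp90aa1, the inducible HSP90 chaperone, had 0.11, -0.03 and 0.30. Arnt2, a relative of ARNT, was dim and at least 1.45-fold lower with HRF in the FcRg KO pair. Its log2 ratios were 0.55 in FceRIa KO and -0.06 in WT. The coregulators Ncoa1 (-0.11, -0.37 and -0.17) and Nrip1 (-0.32, -0.30 and -0.21) were slightly lower in all 3.

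Among 16 further AHR-inducible genes, few had ratios like those of Cyp1a1. Serpinb2, an inhibitor of plasminogen activation, had ratios of 1.18 for FcRg KO, 0.24 for FceRIa KO and 2.53 for WT. The EGF receptor ligand genes Areg (0.83, 0.84 and 0.78) and Ereg (-0.49, 1.04 and 0.88) differed, in that Areg was higher by a similar amount in every pair. The list's median was -0.03, 0.07 and 0.14.

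NRF2 targets, the group to which Nqo1 also belongs, were mostly above 0 in WT. Of 21 genes, 6 were above 0 in the FcRg KO pair (median -0.09), 20 in the FceRIa KO pair (median 0.26) and 18 in the WT pair (median 0.52), and these medians kept their sign under every scaling tried. The median over all genes compared was 0.00, -0.01 and -0.05 in the same pairs. The glutamate-cysteine ligase gene Gclc had -0.12, 0.39 and 0.92, close to Nqo1 at 0.12, 0.41 and 0.92. Gstp1, a glutathione transferase, had -0.09, 0.08 and 0.94, and Cbr3, a carbonyl reductase, -0.07, 0.05 and 0.87. The level of Gstp1 was 2.62 on the WT PBS array and between 3.36 and 3.56 on the others, so its WT ratio rests on the low WT PBS level. Only Slc7a11, the cystine transporter, passed 2-fold, with a log2 ratio of 2.73 in WT. In the other pairs, where its PBS probes were not well above background, it was at least 2.24-fold higher in FcRg KO and at least 7.71-fold in FceRIa KO.

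A further list holds enzymes of tryptophan use, some of which make AHR ligands while others use up such products. Of these, 2 were at least 2-fold higher with HRF in WT, Il4i1 and Kmo (2.48% of all genes were). Il4i1, which yields indole ligands of AHR, had ratios of 0.23, 2.24 and 2.54. Those of Cyp1a1 in the same pairs were -0.01, -0.67 and 3.29, and a link between them was not tested. Kmo, which uses kynurenine, had 0.35, 0.37 and 1.44, and Kynu, the kynureninase, 0.04, -0.27 and 0.76. Tph1, which starts serotonin synthesis, was dim. With HRF it was at least 2.49-fold lower in FcRg KO but higher in WT, with a log2 ratio of 0.83. On both FceRIa KO arrays Tph1 was not well above background, so no ratio is given for that pair. The list's median over 11, 10 and 11 genes was 0.05, 0.03 and 0.39, the first turning just below 0 with normexp and quantile normalization.

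HIF factors share ARNT with AHR. Of 12 genes, 0 passed 2-fold in either labelled knockout pair and 2 did in WT, namely Egln3, an oxygen sensor (-0.27, 0.99 and 1.92), and the peptide hormone gene Adm (-0.15, -0.07 and 1.16). The glucose transporter Slc2a1 had -0.17, 0.44 and 0.91, and Hif1a itself 0.17, 0.27 and 0.53. The 6 PARP relatives of Tiparp were all above 0 in every pair. Their medians were 0.12, 0.14 and 0.18, beside 0.00, -0.01 and -0.05 for all genes. The largest were Parp14 (0.52 in WT), Parp9 (0.42 in WT), Parp11 (0.39 in FcRg KO) and Parp10 (0.25 in WT).

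Other lung cytochrome P450 genes, listed together with genes of their electron donors, had ratios in both directions. The oxysterol hydroxylase Cyp7b1 had 0.03 for FcRg KO, 0.66 for FceRIa KO and 2.0 for WT, and Cyp51, of cholesterol synthesis, 0.32, 0.60 and 0.70. Cyp26b1, which degrades retinoic acid, had -5.56, -2.93 and 1.32, and Cyp2e1 -1.01, 1.36 and -0.38. With PBS, Cyp26b1 stood at 4.69 on the FcRg KO array and 4.78 on the FceRIa KO array, against 1.31 in WT. With HRF its levels were -0.87, 1.85 and 2.64. Both negative ratios thus rest on high PBS levels in the labelled knockouts as well as on the HRF levels. Of the 16 genes, 2 were at least 2-fold higher in WT, and the list's median was -0.03, 0.14 and -0.13, the last turning to 0.09 with median scaling.

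**Figure D4:**
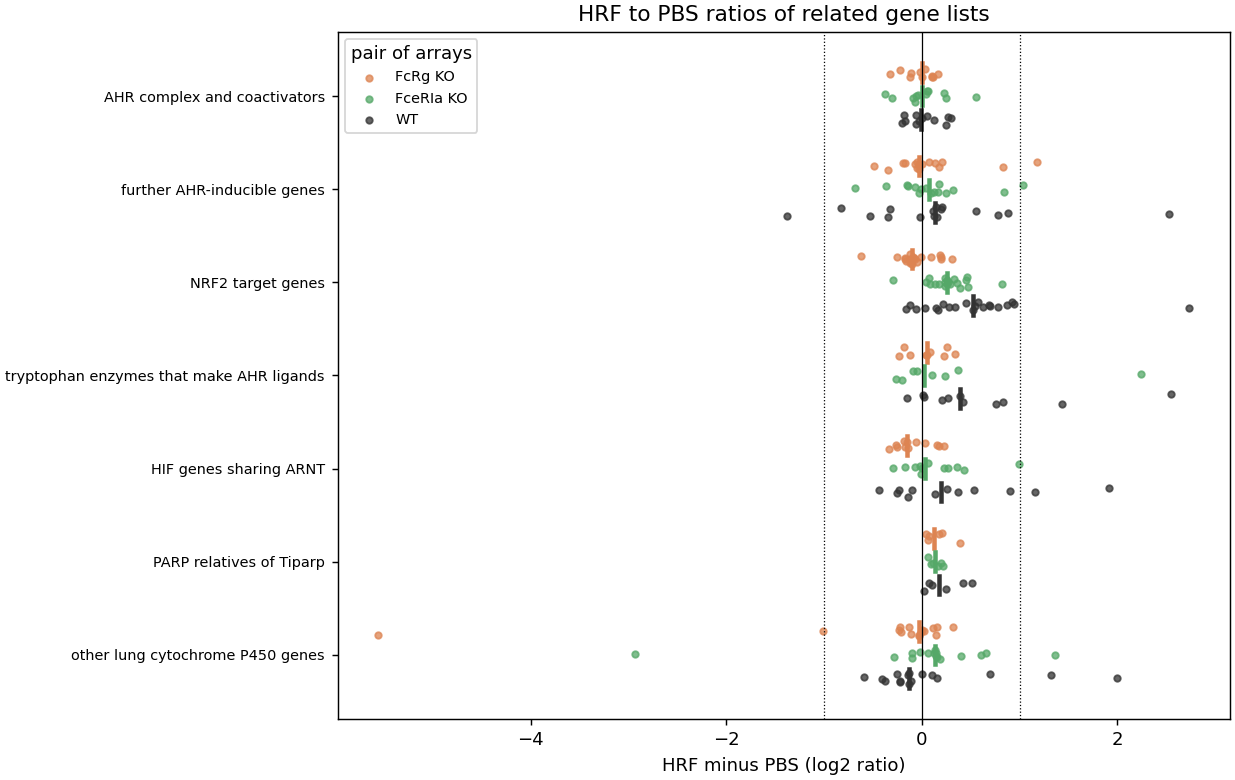
HRF minus PBS log2 ratios of genes in 7 related lists, for genes well above background on both arrays of a pair. Each point is a gene, thick ticks are medians, colours mark the pair and dotted lines mark 2-fold. The NRF2 targets of the WT pair lie mostly right of 0, and the AHR complex lies around 0 in each pair.

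Markers of other cell types also differed between these arrays, and their part in the results above was not tested. In WT, 4 of 6 neutrophil markers were at least 2-fold higher with HRF (2.48% of all genes were). Their median ratio was 1.77 in WT, 0.12 in FcRg KO and 0.03 in FceRIa KO. The WT ratio rests in part on low WT PBS levels. With PBS the median difference of these markers from WT was 0.82 in FcRg KO and 1.12 in FceRIa KO, and with HRF -0.30 and -0.12. All 6 were well above background on every array, and their summed level was 225 and 189 with HRF and PBS on the FcRg KO arrays, 270 and 238 on the FceRIa KO arrays and 201 and 164 in WT. Of 6 markers of Th17 and group 3 innate lymphoid cells, which depend on AHR, 3 were at least 2-fold higher in WT (2.48% of all genes were). Only 3 of the 6 were well above background on all 6 arrays, so the sums include dim probes. The summed level of the 6 was 0.68 and 0.73 on the FcRg KO arrays, 1.65 and 1.38 on the FceRIa KO arrays and 2.99 and 1.43 in WT. Il22, an AHR target in those cells, had levels of -5.00 and -5.18, -5.26 and -5.23, and -4.60 and -4.75 in the same order.

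Fat markers differed beside Cyp1b1 in the labelled knockouts, and their part in its ratios was not tested. All 8 adipocyte markers were above background on every array. Of these, 5 were at least 2-fold lower with HRF in FcRg KO (1.60% of all genes were). In FceRIa KO 7 were at least 2-fold higher (1.97% of all genes), and 0 passed 2-fold in WT. Their summed level was 94.5 and 189 on the FcRg KO arrays, 198 and 92.3 on the FceRIa KO arrays and 106.8 and 113 in WT. Atrial cardiac muscle markers summed to 261 and 500 in FcRg KO, 272 and 313 in FceRIa KO and 275 and 360 in WT. Stromal markers were lower with HRF in each pair. The median ratio of 6 smooth muscle markers was -0.42 for FcRg KO, -0.14 for FceRIa KO and -0.18 for WT. That of 6 fibroblast markers was -0.17, -0.18 and -0.21, and the part of either in the Cyp1b1 ratios was not tested. The median adipocyte ratio was -1.27 for FcRg KO, 1.19 for FceRIa KO and 0.00 for WT. Endothelial and club cells are known to express Cyp1a1 when induced. Endothelial markers summed to 164 and 163, 163 and 171, and 150 and 156, and club cell markers to 994 and 882, 978 and 845, and 884 and 900. The median endothelial ratio was 0.02 for FcRg KO, -0.02 for FceRIa KO and -0.26 for WT, where 6 of 8 markers were below 0. Club cell medians were 0.11, 0.15 and -0.05. The part of these cells in the Cyp1a1 ratios was not tested.

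The genes whose levels followed each member most closely were found by the root mean square difference of levels over the 6 arrays, each gene centred on its own mean, among genes well above background on all arrays. For Cyp1a1 they were Cd209d, a C-type lectin (0.41), the transcription factor Phox2a (0.45) and Socs1, an inhibitor of cytokine signalling (0.48), in log2 units. Their ratios in the FceRIa KO pair were 0.26, 0.36 and 0.18, against -0.67 for Cyp1a1. For Cyp1b1 they were the neurotrophin receptor gene Ngfr (0.09), Lctl (0.14) and Junb, an immediate early factor (0.14). Junb had ratios of -0.97 for FcRg KO, 0.69 for FceRIa KO and 0.91 for WT, beside -0.92, 0.45 and 1.27 for Cyp1b1. For Nqo1 they were Ppp1r14d (0.07), the interferon-inducible GTPase gene Gbp2 (0.08) and Acox2, a peroxisomal oxidase (0.08). The other 3 measured members varied by less than 1 log2 unit and were not compared.

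**Figure D5:**
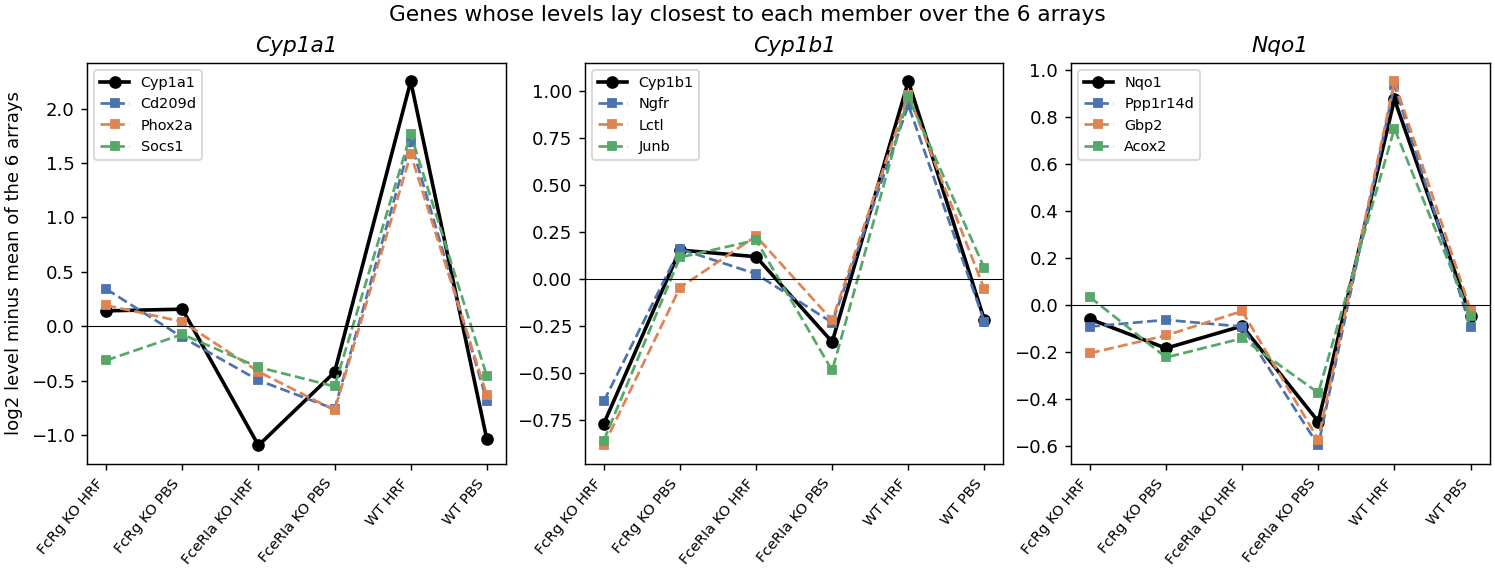
Levels of Cyp1a1, Cyp1b1 and Nqo1 (black) and of the 3 genes closest to each (colours) on the 6 arrays, each as log2 minus its own mean. All profiles peak on the WT HRF array, and Cyp1a1 alone in its panel is lowest on the FceRIa KO HRF array.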

How the data were processed

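The arrays were read with Agilent Feature Extraction 10.7.3.1 on a design annotated on mm9, per the file headers. Values start from the deposited processed signal, an intensity after background subtraction and spatial detrending by that software, per the file headers, and not scaled between arrays. A deposited value table holds log2 values whose centring is unknown. Its HRF minus PBS differences correlated across probes with those used here at r of 0.997 for FcRg KO, 0.997 for FceRIa KO and 0.998 for WT, with slopes of 1.00, 0.999 and 1.00, so scale and direction match. The median of its WT PBS column was 0.10 and that of the others 0.

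Control and outlier spots were left out, and spots of a probe were averaged. Of 55681 probes, 26056 were named through RefSeq accessions (assembly GRCm38.p6), and the other 29625 are unnamed. The brightest probe stood for a gene. Genes entered a comparison if either array had them well above background, and a ratio with 1 dim side is a bound against the higher of the dim signal and the lowest signal well above background. The HRF effect was fitted with limma 3.58.1 in R 4.3.3 (2 residual degrees of freedom, Benjamini-Hochberg), and the script was tested on simulated data. Other steps used Python 3.11.15, numpy 2.4.6, pandas 2.3.3 and matplotlib 3.10.9. The text names all 7 members, up to 4 genes per list with the largest ratios and the 3 genes closest to each member that spans at least 1 log2 unit, and names the targeted genes and Il22 besides. One list gene that this rule picks is not reported here. Members and lists were chosen with earlier results of these data known. Marker lists covered 17 cell types, and those given in the text differed between arrays or are cells in which Cyp1a1 or Cyp1b1 is known.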

Additional observations from a re-analysis of the deposited data

Results flagged for a closer look

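Cyp1a1 was singled out because its HRF to PBS ratio went opposite ways in FceRIa KO (log2 -0.67) and WT (3.29), each by at least 1.5-fold. Cyp1b1 was singled out for the same reason in FcRg KO (-0.92) and WT (1.27). With 1 array per group, neither difference was tested.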

How the results depend on the processing

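The 42 ratios of the 6 measured members were recomputed 161 times with normexp (median spot signal, since no mean signal is given, offset 50) and quantile normalization, the deposited value table, median scaling, the mean over probes and, added after the data were seen, the other probe. In 160 cases the ratio stayed on its side of 2-fold, and the exception was Nqo1 in WT with median scaling (1.14). A ratio under 2-fold counts as staying even if its sign changes. Ahrr did so between the FceRIa KO and WT PBS arrays, at -0.52 but 0.10 with normexp. Cyp1a1 in WT ranged from 3.19 to 3.51. The limma count was 0 under each of the 6 alternatives, with between 1047 and 1979 genes at an unadjusted p under 0.05. List genes at least 2-fold higher in WT numbered 16 with median scaling, against 8. With normexp, 0 list genes were higher and 1 lower in FcRg KO and 2 higher in FceRIa KO, and with both arrays above background 1 was higher in FcRg KO. Over all genes, lower genes in WT numbered 35 with normexp, 268 with median scaling (with 646 higher), 921 with no filter and 186 with both arrays above background. The higher and lower counts were 27 and 79 with normexp, 483 and 508 with no filter and 99 and 164 with both above background in FcRg KO, and 118 and 17, 587 and 306, and 183 and 34 in FceRIa KO. With normexp, 303 genes were higher in WT. Median scaling moves the median WT ratio of all genes by 0.22, and the filters by construction test fewer or more genes. The cause of the moves with normexp was not tested. All arrays share 1 slide, so no slide block could be fitted. Beyond the limma fit, which sets HRF against PBS within each genotype label, no paired analysis was possible because each group holds 1 array. Dim members such as Ahrr limit what these arrays show.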
